A study of Homo sapiens with 6 samples.

Results

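The Krüppel-like factors (KLF) are zinc-finger transcription factors, and 10 of their genes were followed here: KLF2, KLF3, KLF4, KLF5, KLF6, KLF7, KLF9, KLF10, KLF11 and KLF13. Every probe set of the array that the platform annotation gives to 1 of these genes and to no other was taken, which left 32 probe sets of 54613 and 10 genes of 19775. A probe set is a group of short probes read as a single value for a stretch of a transcript, and the 10 genes had between 1 probe set (KLF10) and 5 probe sets (KLF6, KLF7 and KLF9) each. The chemokine-like gene CKLF, whose symbol is also an old alias of KLF5, was not counted.

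The arrays came from SW480, an established human colorectal adenocarcinoma line. There were 3 arrays labelled CPEB3, from cells transfected to overexpress this cytoplasmic polyadenylation element binding protein, and 3 labelled NC, from cells given a negative control. Both groups grew in the same serum-containing medium, and the labels call the samples biological replicates without naming separate cultures, so p-values describe the spread between these arrays. Neither the construct, the transfection reagent nor the time after transfection is stated, and both groups share the genotype of 1 cell line.

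KLF proteins bind GC-rich and CACCC sequences through a nearly identical zinc-finger end and differ in the rest of the protein, which recruits partners. KLF2, KLF4, KLF5, KLF6 and KLF7 carry activation domains, KLF3 represses through the corepressor CtBP, and KLF9, KLF10, KLF11 and KLF13 bind the corepressor SIN3A. In the gut KLF4 is known from differentiated surface cells and KLF5 from dividing crypt cells, and KLF2, KLF4, KLF6 and KLF10 are among the genes that many cell types switch on early after growth factor, cytokine or stress signals.

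The upstream sequence of 4 of these genes is printed because it shows, side by side, KLF2, KLF4 and KLF6, which fell more than 2-fold, and KLF13, which did not pass the test. Each run is the 250 bases that end just before the annotated transcript start, read 5′ to 3′ on the gene's strand from RefSeq (GRCh38.p14). KLF2 (Entrez 10365) was read at chr19:16324576-16324825 on the plus strand, and KLF4 (Entrez 9314) at chr9:107489770-107490019 on the minus strand. KLF6 (Entrez 1316) was read at chr10:3785210-3785459 on the minus strand, and KLF13 (Entrez 51621) at chr15:31326585-31326834 on the plus strand. Capitals mark a MEF2 site in KLF2 and the E-box CACGTG in KLF4 and KLF6.
KLF2: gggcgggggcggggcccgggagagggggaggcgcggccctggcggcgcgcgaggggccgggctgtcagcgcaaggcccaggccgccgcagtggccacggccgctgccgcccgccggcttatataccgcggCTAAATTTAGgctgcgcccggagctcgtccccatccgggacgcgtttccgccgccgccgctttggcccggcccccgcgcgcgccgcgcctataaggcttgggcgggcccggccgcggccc
KLF4: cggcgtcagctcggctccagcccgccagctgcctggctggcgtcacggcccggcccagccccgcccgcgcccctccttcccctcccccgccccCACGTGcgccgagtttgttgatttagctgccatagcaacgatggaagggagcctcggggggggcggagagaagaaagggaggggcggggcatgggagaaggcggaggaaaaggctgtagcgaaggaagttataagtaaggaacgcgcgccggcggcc
KLF6: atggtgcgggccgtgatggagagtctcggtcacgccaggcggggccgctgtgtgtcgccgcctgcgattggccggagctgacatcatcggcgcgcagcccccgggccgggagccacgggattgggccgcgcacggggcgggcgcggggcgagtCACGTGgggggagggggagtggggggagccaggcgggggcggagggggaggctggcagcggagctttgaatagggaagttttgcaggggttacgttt
KLF13: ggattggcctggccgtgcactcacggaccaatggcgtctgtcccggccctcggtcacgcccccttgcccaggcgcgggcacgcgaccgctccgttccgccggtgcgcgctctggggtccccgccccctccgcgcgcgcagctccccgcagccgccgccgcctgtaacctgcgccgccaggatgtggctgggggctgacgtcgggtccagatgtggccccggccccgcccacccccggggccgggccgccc

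Both strands of all such windows were searched for the MEF2 site (by its consensus), the CArG box of serum response factor (by its consensus), CACGTG, the AP-1 motif TGANTCA, the cyclic AMP motif TGACGTCA, CACCC and the GC box GGGCGG, overlaps being counted. This choice was made with these sequences in view. The RefSeq table held 13 windows for 8 of the 10 genes, and no window for KLF3 or KLF10. The MEF2 site CTAAATTTAG lay 120 to 111 bases before the start of KLF2, in a window type where 2.8% of all 35114 windows hold such a site. CACGTG stood in 1 window each of KLF4, KLF6, KLF7 and KLF11, against 6.35% of all windows, and in none of KLF2, KLF5, KLF9 or KLF13. GGGCGG was in 8 of the 13 windows (42.6% of all), KLF13 included, and TGANTCA in 0 (6.57% of all). CACCC was in 6 of the 13 windows (54.7% of all), the CArG box in 1 window of KLF7 (1.16% of all) and TGACGTCA in 1 window of KLF11 (1.65% of all). A match is a run of letters and not a shown binding site, and the arrays did not measure binding.

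Values are log2 of the deposited normalized intensity, and a difference is the mean of the arrays labelled CPEB3 minus the mean of those labelled NC. Over all probe sets the arrays of 1 group correlated at 0.997 to 0.998 and arrays of different groups at 0.991 to 0.992. The transfected gene was not higher under its label. Of the 4 CPEB3 probe sets 3 were lower in CPEB3-labelled arrays, 1 of them by 1.44 on the log2 scale (2.31 against 3.75). All 3 were dim, below the median level of all probe sets. The brightest, above that level, read 5.37 against 5.32 and differed by 0.05 (limma, Benjamini-Hochberg adjusted p = 0.695). Where these probe sets lie relative to the construct was not analysed here, and a probe set outside its sequence does not check the label. Each direction given for the KLF genes rests on the array labels. The spiked-in control RNAs fell by 0.18 on the log2 scale in CPEB3-labelled arrays, and centring the arrays on them adds that amount to every difference, which turns the sign at the brightest probe sets of KLF9 and KLF13 and keeps all 8 falls. Of the markers fixed for the epithelium, all 12 were measured and none fell below the median level of all probe sets (3.90), among them EPCAM, KRT8, KRT18 and KRT19.

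Of the 32 KLF probe sets 17 were lower in CPEB3-labelled arrays and 0 were higher (limma, Benjamini-Hochberg adjusted p under 0.05 over all probe sets), where 14.4% of all probe sets passed, 7.86% lower and 6.59% higher. The fall was at least 2-fold in 11 of the 32, against 0.61% of all probe sets. With each gene read at its brightest probe set, 8 of the 10 KLF genes fell and KLF9 and KLF13 did not pass, against 12.5% of 19775 genes lower and 23.3% past the threshold in either direction. The fall was at least 2-fold for 5 of them, KLF4, KLF2, KLF10, KLF6 and KLF7, against 0.865% of all genes, with KLF7 just inside that mark at 2.001-fold. In 8 of the 10 genes every CPEB3 value lay below every NC value, against 19.1% of all genes. The median of the 10 differences was -0.75, and that of all genes 0.02. In bulk RNA from a culture, fewer cells that express a gene and less of its RNA per cell cannot be told apart.

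**Figure D1:**
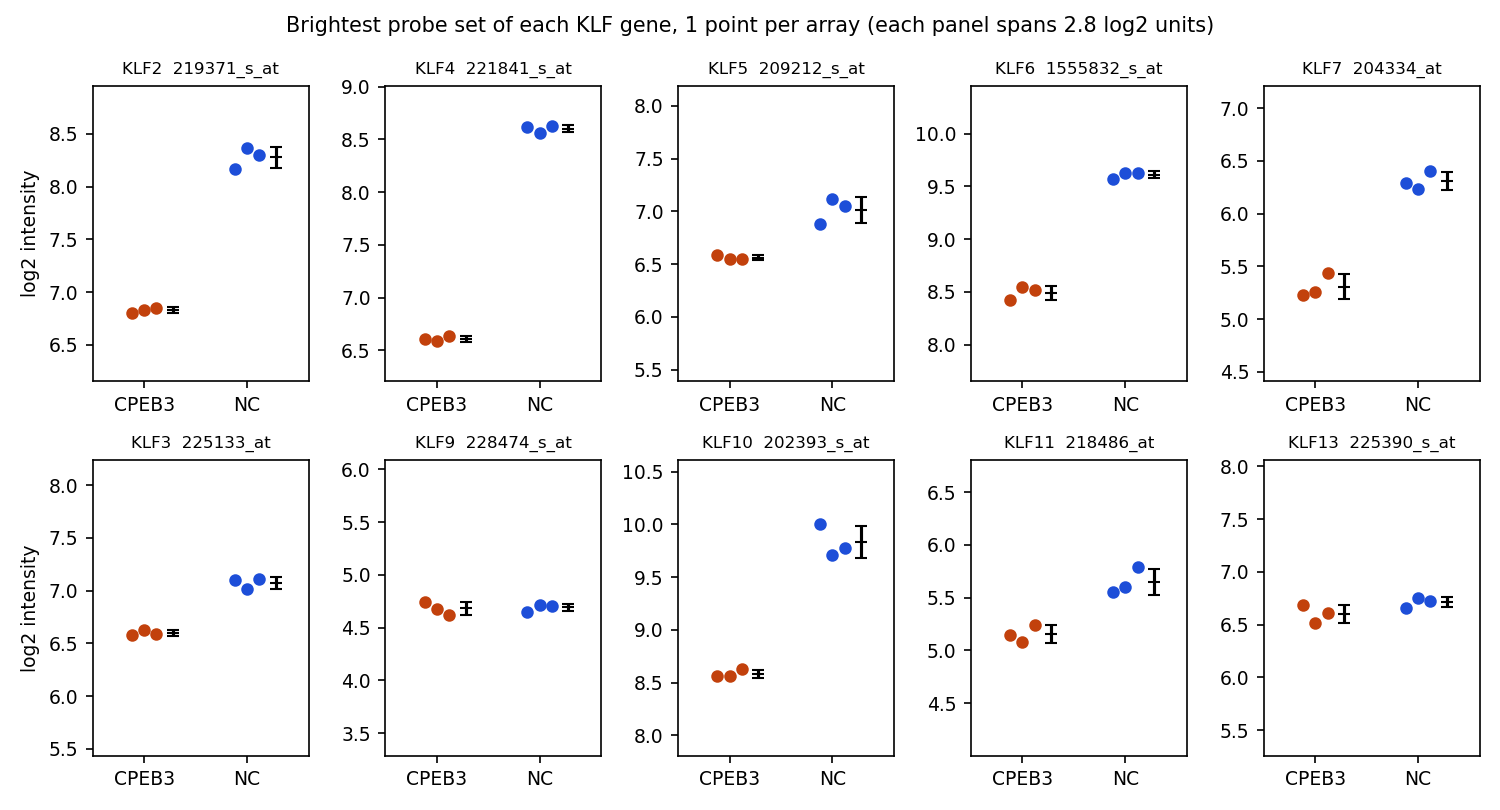
Log2 intensity at the brightest probe set of each of the 10 KLF genes, 1 point per array, the 3 arrays labelled CPEB3 on the left and the 3 labelled NC on the right, with mean and SD at the side. In 8 panels every CPEB3 point lies under every NC point, and the gap is widest for KLF4 (6.59 to 6.64 against 8.56 to 8.62); in KLF9 and KLF13 the points overlap.

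KLF4, the factor of differentiated gut surface cells that also serves in reprogramming to pluripotency, had the largest fall of the 10. At its brighter probe set (221841_s_at) it read 6.61, 6.59 and 6.64 in CPEB3-labelled arrays, against 8.62, 8.56 and 8.62 in NC-labelled arrays. The groups lay far apart with little spread in either, and the difference of -1.99 (SE 0.06, 95% interval -2.13 to -1.85) was a 3.98-fold fall (limma, Benjamini-Hochberg adjusted p = 7.45e-08). The other probe set (220266_s_at) read 3.94, 4.12 and 4.18 against 5.52, 5.53 and 5.45, a difference of -1.41 (SE 0.08; limma, Benjamini-Hochberg adjusted p = 3.97e-06). Both probe sets of KLF4 thus fell without overlap, the dimmer by less. Ordered by the size of the fall at the brightest probe set, KLF4 stood at place 53 of 19775 genes, KLF2 at 90, KLF10 at 114, KLF6 at 141 and KLF7 at 171.

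KLF2, known for keeping endothelial cells and T cells quiescent, had the next largest fall at the brightest probe sets. Its brighter probe set (219371_s_at) read 6.80, 6.83 and 6.85 in CPEB3-labelled arrays and 8.17, 8.37 and 8.30 in NC-labelled arrays, without overlap. The difference was -1.45 (SE 0.07), a 2.73-fold fall (limma, Benjamini-Hochberg adjusted p = 1.80e-06). Its other probe set (226646_at) told less: it read 4.31, 4.32 and 4.44 against 4.44, 4.62 and 4.58, a difference of -0.19 that did not pass (95% interval -0.36 to -0.02; limma, Benjamini-Hochberg adjusted p = 0.128). The call for KLF2 therefore rests on 1 probe set of the kind that can match several transcripts, and without such probe sets KLF2 did not pass (-0.19, adjusted p = 0.101). With the mean of probe sets it fell by 0.82, less than KLF10 (-1.25), KLF6 (-0.87) and KLF7 (-0.86).

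KLF6, expressed in most tissues and studied as a candidate tumour suppressor, fell at 4 of its 5 probe sets by much the same amount. The brightest (1555832_s_at) read 8.42, 8.54 and 8.51 in CPEB3-labelled arrays, against 9.57, 9.63 and 9.63 in NC-labelled arrays, a difference of -1.12 (SE 0.07) or 2.17-fold (limma, Benjamini-Hochberg adjusted p = 6.13e-06). The other 3 that fell differed by -1.02 (224606_at), -1.18 (208961_s_at) and -1.10 (208960_s_at), and in none of the 4 did the groups overlap. The fifth (211610_at) was dim and flat, at 4.03, 4.03 and 4.43 against 4.16, 4.01 and 4.18, with a difference of 0.04 (95% interval -0.20 to 0.29).

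KLF7, a factor of neuronal development, had the same layout, with 4 of 5 probe sets lower. The brightest (204334_at) read 5.23, 5.26 and 5.44 in CPEB3-labelled arrays and 6.29, 6.23 and 6.41 in NC-labelled arrays, a difference of -1.001 (SE 0.08; limma, Benjamini-Hochberg adjusted p = 4.98e-05). The others that fell spread more widely than those of KLF6, at -1.43 (240432_x_at), -1.14 (1555420_a_at) and -0.78 (238482_at). The probe set 238517_at, below the median level of the array, read 3.43, 3.78 and 3.67 against 3.64, 3.54 and 3.55 and differed by 0.05 (95% interval -0.16 to 0.26).

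KLF5, the factor of dividing crypt cells, fell by less. Its brighter probe set (209212_s_at) read 6.59, 6.55 and 6.55 in CPEB3-labelled arrays and 6.88, 7.11 and 7.05 in NC-labelled arrays, a difference of -0.45 (SE 0.08) or 1.37-fold (limma, Benjamini-Hochberg adjusted p = 0.00362), and -0.27 with spike-in centring. The other (209211_at) read 4.37, 4.58 and 4.34 against 5.58, 4.999 and 4.84, the NC arrays being uneven and the first of them highest. Its difference of -0.71 (SE 0.17; limma, Benjamini-Hochberg adjusted p = 0.0189) lost its call without CPEB3 replicate 1 (-0.68, adjusted p = 0.075) or CPEB3 replicate 3 (-0.665, adjusted p = 0.0626).

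KLF3, the CtBP-dependent repressor, fell at 2 of its 4 probe sets. The brightest (225133_at) read 6.58, 6.63 and 6.59 in CPEB3-labelled arrays, against 7.10, 7.01 and 7.12 in NC-labelled arrays, a difference of -0.48 (SE 0.06) or 1.39-fold (limma, Benjamini-Hochberg adjusted p = 0.00111). It was -0.298 with spike-in centring and -0.26 as the mean of 4 probe sets. The dimmest (225140_at) was lower by a difference of -0.28 (limma, Benjamini-Hochberg adjusted p = 0.0192) but lost its call without CPEB3 replicate 1 or 3 or NC replicate 2 or 3 (differences of -0.25 to -0.28), and with spike-in centring (-0.10). The remaining pair differed by -0.14 (222913_at) and -0.15 (219657_s_at), neither past the threshold. The antisense gene KLF3-AS1, named outside the fixed rule, was not past it either, with differences of 0.02 and -0.06 at its 2 probe sets.

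Among the SIN3A-binding members KLF10, the TGF-beta inducible early gene, had the one large fall. At its single probe set (202393_s_at) it read 8.57, 8.56 and 8.63 in CPEB3-labelled arrays and 10.01, 9.71 and 9.78 in NC-labelled arrays. The groups lay apart by more than the spread of either, and the difference of -1.25 (SE 0.08) was a 2.37-fold fall (limma, Benjamini-Hochberg adjusted p = 1.53e-05). No second probe set was there to set beside it.

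KLF11, its close relative and also TGF-beta inducible, read 5.15, 5.08 and 5.24 in CPEB3-labelled arrays and 5.56, 5.60 and 5.79 in NC-labelled arrays at its brighter probe set (218486_at). The difference was -0.49 (SE 0.08) or 1.41-fold (limma, Benjamini-Hochberg adjusted p = 0.00357), and -0.31 with spike-in centring. The other probe set (1553137_s_at) lay near the floor of the array in both groups, at 1.37 to 1.65 against 1.59 to 1.74, and did not pass.

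KLF9, which glucocorticoid and thyroid hormone induce, was not past the threshold at any of 5 probe sets. The brightest (228474_s_at) read 4.74, 4.68 and 4.62 in CPEB3-labelled arrays and 4.65, 4.71 and 4.71 in NC-labelled arrays, a difference of -0.01 (95% interval -0.16 to 0.14). Of the others, 203543_s_at alone had groups that did not overlap (1.97 to 2.08 against 2.16 to 2.54, limma, Benjamini-Hochberg adjusted p = 0.132), and 3 of the 5 were below the median level. Its divergent transcript KLF9-DT, again outside the rule, differed by 0.13 at a dim probe set (limma, Benjamini-Hochberg adjusted p = 0.552).

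KLF13, a regulator of CCL5 in T cells, did not pass at any of 4 probe sets. The brightest (225390_s_at) was well above the median level and read 6.68, 6.52 and 6.61 in CPEB3-labelled arrays, against 6.66, 6.76 and 6.73 in NC-labelled arrays. Its difference was -0.11 (95% interval -0.27 to 0.05), and that interval leaves out the fall of 0.45 measured for KLF5. The other 3 differed by -0.10 to 0.03.

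**Figure D2:**
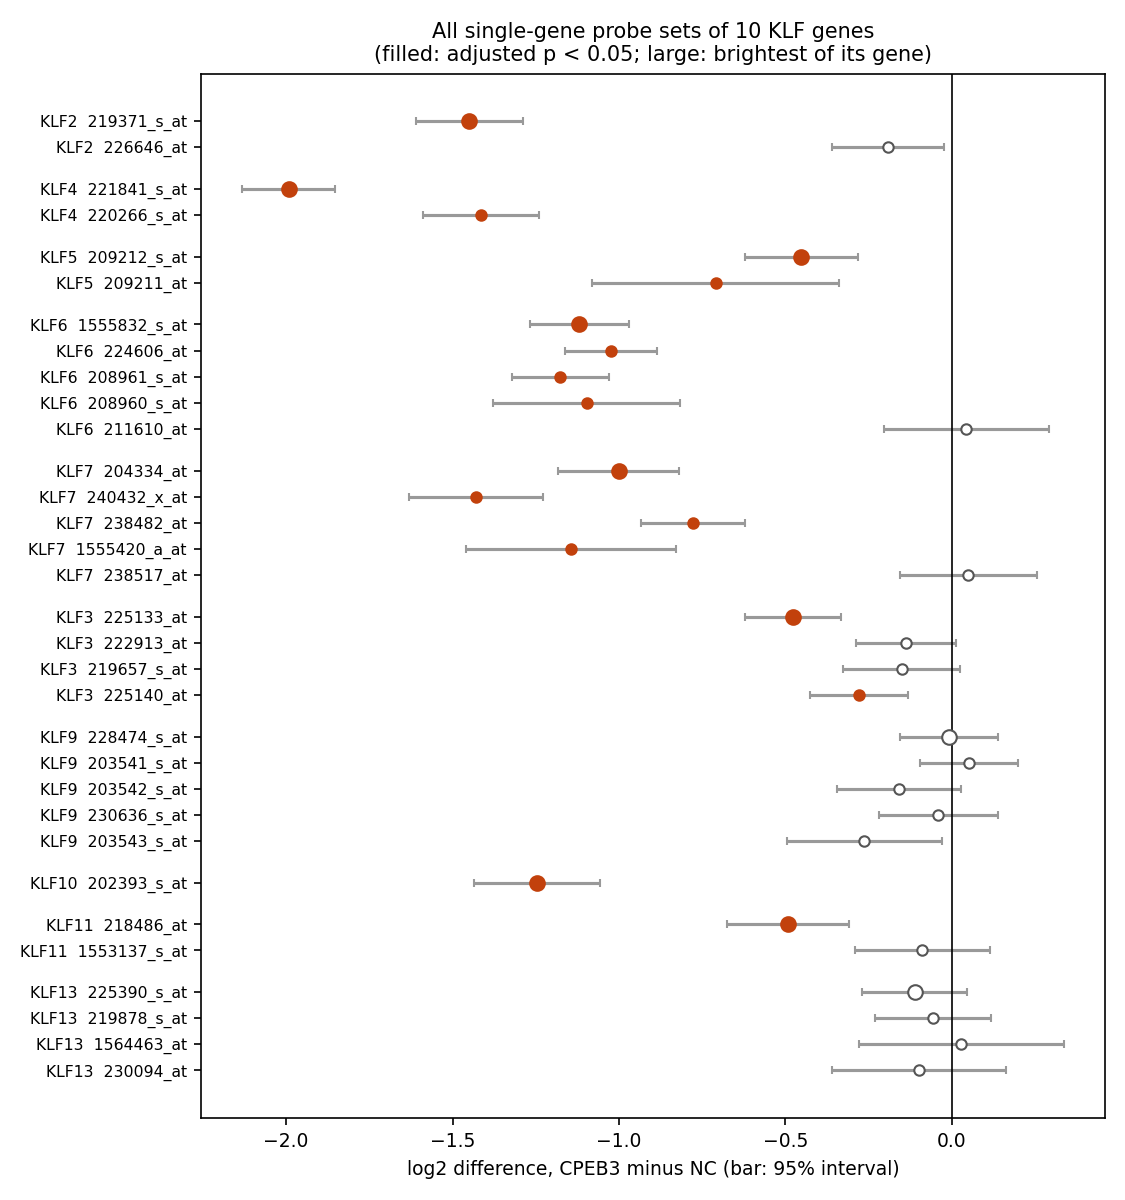
Log2 difference, CPEB3 minus NC, of all 32 probe sets of the 10 KLF genes with 95% intervals from limma; filled points have an adjusted p under 0.05 and large points are the brightest of their gene. KLF6 and KLF7 each have 4 filled points and 1 open point near 0, and all points of KLF9 and KLF13 are open.

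Of the 15 probe sets that did not pass, 7 lay below the median level and 8 at or above it. At or above the median level of all probe sets, 16 of 24 KLF probe sets were lower, where 13.6% of all probe sets at such levels were. Below it, 1 of 8 was lower, against 2.12%. The 8 above the median that did not pass were the brightest probe sets of KLF9 and KLF13, the second of KLF9 (203541_s_at), 219878_s_at of KLF13, 222913_at and 219657_s_at of KLF3, 226646_at of KLF2 and 211610_at of KLF6. Groups did not overlap, with CPEB3 below, in 19 of the 32 probe sets, against 14.9% of all.

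**Figure D3:**
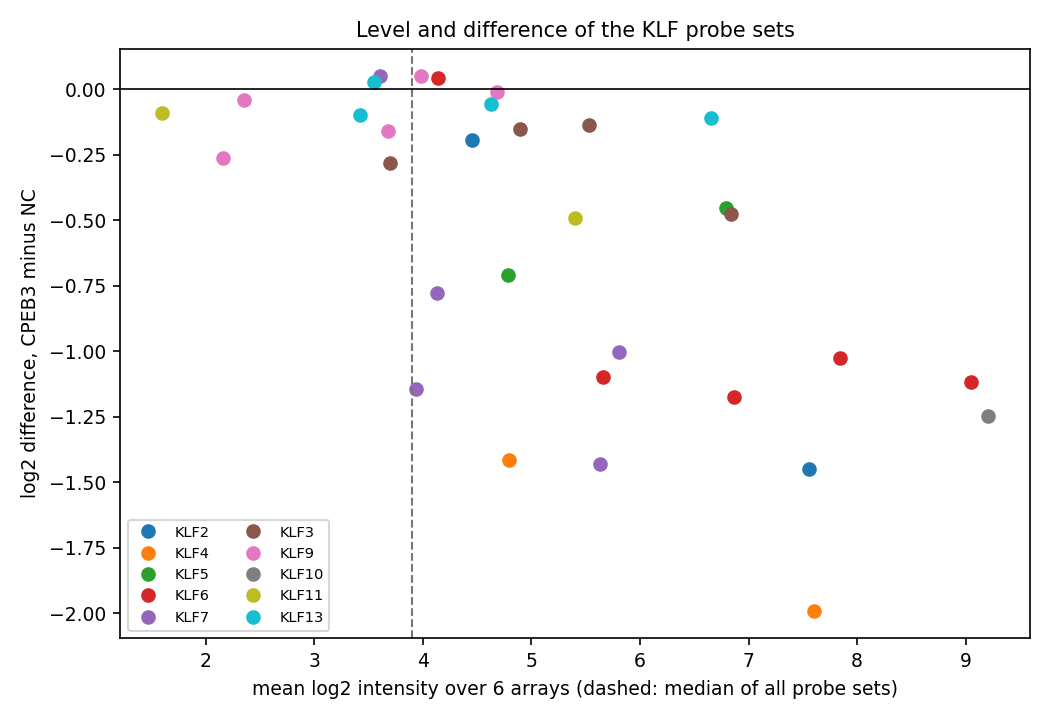
Mean log2 intensity over 6 arrays (x) against the log2 difference, CPEB3 minus NC (y), for the 32 KLF probe sets, coloured by gene; the dashed line is the median level of all probe sets (3.90). Differences beyond -1 appear on the right of the line, and KLF13 stays near 0 at its brightest probe set.

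A change of scale between arrays cannot alter the difference between 2 probe sets of the same array, so each member was also set against KLF4 within each array, at the brightest probe sets. KLF4 minus KLF5 was 0.02, 0.04 and 0.09 in CPEB3-labelled arrays and 1.74, 1.45 and 1.57 in NC-labelled arrays, so that KLF4 fell by 1.54 more than KLF5 (SE 0.09). Against KLF2, the nearest in size, KLF4 fell by 0.54 more (SE 0.08), with -0.19, -0.25 and -0.21 against 0.45, 0.19 and 0.33. KLF4 had the largest fall of the 10, so the sign of these 9 differences was fixed by setting the others against it, and they are given as a description of size. The exact permutation test planned for them gave p = 0.1 in each pair, the smallest that 3 against 3 arrays allow, and supports nothing here. The excess was -1.98 against KLF9, -1.88 against KLF13, -1.51 against KLF3, -1.50 against KLF11, -0.99 against KLF7, -0.87 against KLF6 and -0.74 against KLF10.

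**Figure D4:**
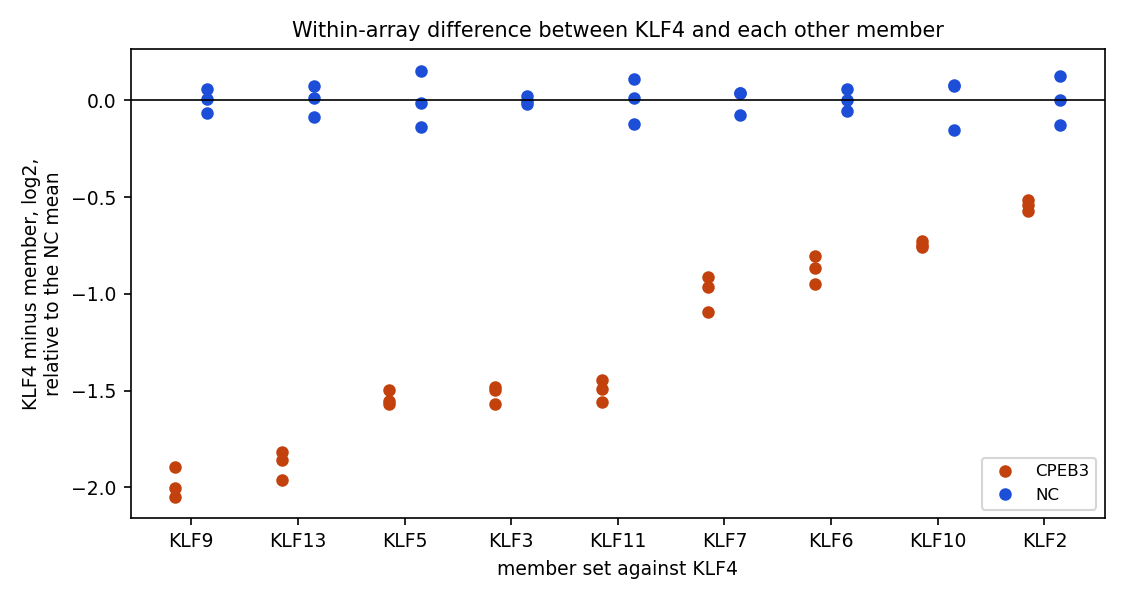
Log2 intensity of KLF4 minus that of each other member within an array, set relative to the NC mean of that pair, 1 point per array; CPEB3 points stand left of NC points. In all 9 pairs the CPEB3 points lie below the NC points, from about -0.54 for KLF2 down to -1.98 for KLF9.

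Of the 7 other KLF genes measured, 0 fell and 2 rose, against 12.5% of genes lower and 10.9% higher. KLF12, a CtBP-binding repressor like KLF3, averaged 5.71 in CPEB3-labelled arrays and 5.24 in NC-labelled arrays, a difference of 0.46 (SE 0.10; limma, Benjamini-Hochberg adjusted p = 0.0114), with 3 of its 8 probe sets higher. KLF14 differed by 0.38 (limma, Benjamini-Hochberg adjusted p = 0.00748) at a dim probe set. Neither passed with the mean of all its probe sets. KLF1, KLF8, KLF15, KLF16 and KLF17 did not pass, and 4 of the 7 genes lay below the median level.

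The SP genes, which share the zinc-finger type and bind the same GC boxes, had 4 of 8 measured members lower and 1 higher (12.5% and 10.9% of all genes), with a median of -0.12 against 0.02 over all genes. On the log2 scale SP4 fell by 0.51 (1 of 2 probe sets lower) and SP2 by 0.42 (1 of 3). SP1 fell by 0.26 (1 of 4) and SP3 by 0.24 (2 of 5), and each of these falls was under 2-fold. SP5, a Wnt target, rose by 0.34 (SE 0.08; limma, Benjamini-Hochberg adjusted p = 0.0124). SP8 did not pass at its brightest probe set, although 1 of its 2 probe sets was lower. With the mean of probe sets 2 SP genes were lower, and with spike-in centring 2 were lower and 2 higher.

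**Figure D5:**
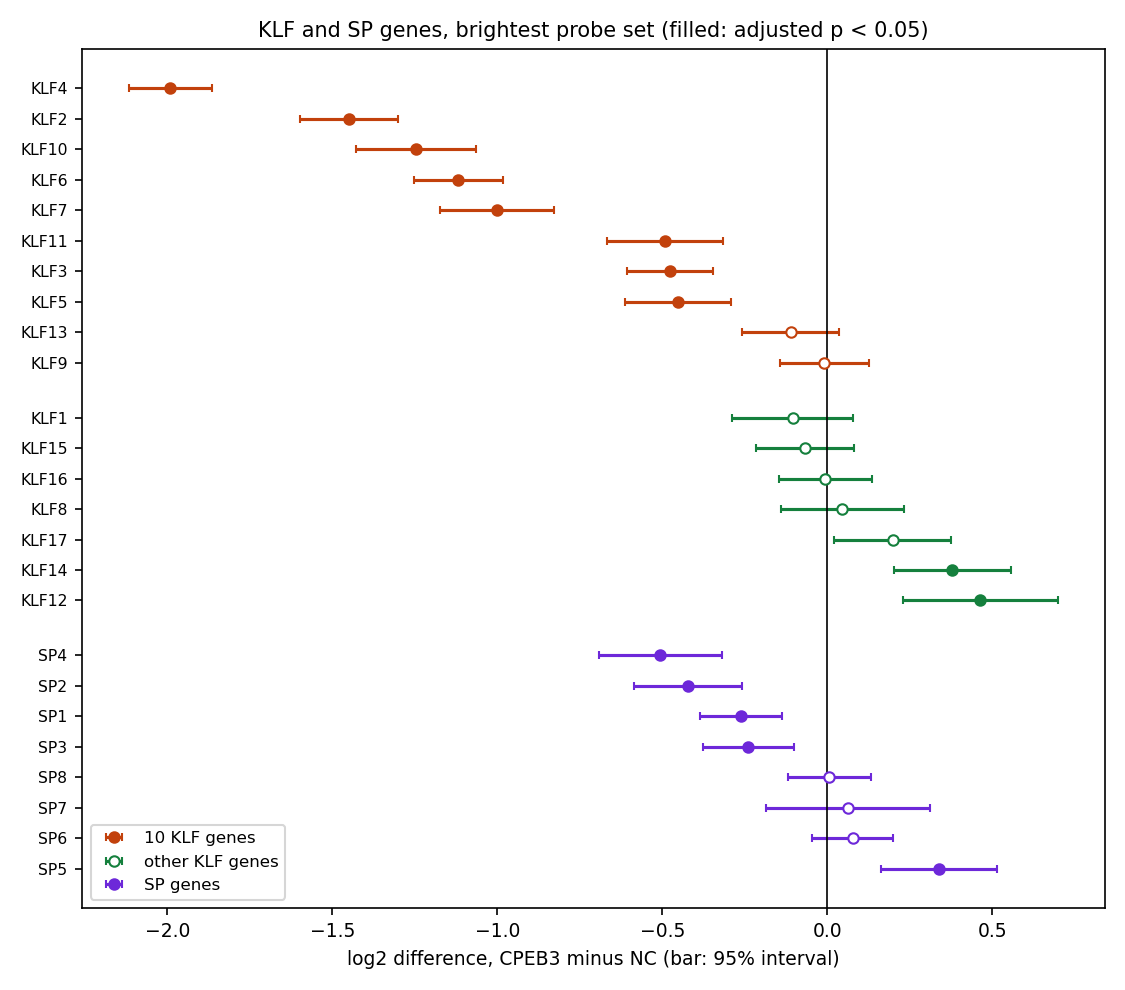
Log2 difference, CPEB3 minus NC, with 95% interval at the brightest probe set of the 10 KLF genes, the other 7 KLF genes and 8 SP genes; filled points have an adjusted p under 0.05. KLF4 is leftmost at -1.99, no SP gene goes beyond -0.51, and KLF12, KLF14 and SP5 lie right of 0.

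Partners of KLF proteins were lower in 8 of 11 genes and higher in 0, against 12.5% of all genes lower and 10.9% higher, with a median of -0.29. SAP30, a subunit of the SIN3A complex, averaged 7.49 in CPEB3-labelled arrays and 8.36 in NC-labelled arrays (-0.87, SE 0.09; limma, Benjamini-Hochberg adjusted p = 1.50e-04) and fell at 3 of 4 probe sets. The acetyltransferases EP300 and KAT2B fell by 0.51 and 0.47, and the corepressor CTBP2 by 0.45 at its brightest and at 5 of 6 probe sets. CTBP1 (-0.03), HDAC2 (0.10) and HDAC3 (-0.17) were not past the threshold. SIN3B passed in the fit of genes but at 0 of 3 probe sets in the fit of probe sets. With spike-in centring 5 were lower and 1 higher, and without CPEB3 replicate 2 or NC replicate 2 the lower count was 5.

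The ERK5 cascade, MEF2 and serum response factor switch on KLF2, KLF4 and other early genes. Of 13 genes listed for these inputs 4 fell and 1 rose, where 12.5% of all genes fell and 10.9% rose, and with spike-in centring 2 were lower and 2 higher. The median difference was -0.07. ELK3, an SRF partner, fell by 0.71 (2 of 2 probe sets lower) and MEF2A by 0.55 (3 of 4). The ERK5 gene MAPK7 (2 of 2 lower) and the upstream kinase MAP3K2 (1 of 7 lower) fell by 0.28 each. MEF2C rose by 0.42 (limma, Benjamini-Hochberg adjusted p = 0.00267), with 2 of 3 probe sets higher. SRF itself was not past the threshold (-0.05, adjusted p = 0.692). Transcript levels of kinases do not measure their activity.

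TGF-beta and SMAD genes, the inputs of KLF10 and KLF11, were lower in 3 of 9 and higher in 1, beside 12.5% and 10.9% of all genes, so the higher count was near the background. The median was -0.05, and with spike-in centring 1 was lower. SMAD4 fell by 0.47, although 1 of its 5 probe sets was higher, the receptor TGFBR2 by 0.41 and the ligand TGFB1 by 0.33, and the receptor TGFBR1 rose by 0.26. With the mean of probe sets 1 was lower and 0 higher, and without CPEB3 replicate 2 TGFBR1 was no longer past the threshold, leaving 0 higher. SMAD7, a direct read-out of this pathway, was not past the threshold (-0.05, adjusted p = 0.67).

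Of 6 genes for the glucocorticoid receptor and its targets 3 were lower and 0 higher, against 12.5% and 10.9% of all genes. The receptor gene NR3C1 fell by 0.44 (3 of 5 probe sets lower). Of the 5 measured genes taken as targets of this receptor TSC22D3 fell by 0.73 at its brightest probe set (1 of 3 lower). ERRFI1, also an early gene of growth factor signalling, fell by 0.64 at its only probe set. FKBP5 (0.02), SGK1 (-0.07) and ZBTB16 (0.03) were not past the threshold, as KLF9 was not. Of 9 genes for the turnover of KLF proteins 3 fell and 1 rose, against 12.5% and 10.9% of all genes, and with spike-in centring 1 was lower and 2 higher. The ubiquitin ligase SMURF1 fell by 0.67 (1 of 5 probe sets lower), SMURF2 by 0.37 (3 of 4) and FBXO32 by 0.29. BTRC rose by 0.28 (1 of 5 probe sets higher). FBXO32 passed in the fit of genes but at 0 of 7 probe sets in the fit of probe sets. FBXW7 (-0.03) and WWP1 (0.15), the ligases known for KLF5 and KLF2, did not pass.

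Genes reported as KLF targets, mostly in gut or other epithelia, went both ways, with 5 of 20 lower and 4 higher, against 12.5% and 10.9% of all genes, and a median of -0.01. With spike-in centring 2 were lower and 7 higher. PDGFA fell by 0.60 (1 of 2 probe sets lower) and EGFR by 0.60 at its brightest probe set (2 of 9 lower, 1 higher). CDKN1B fell by 0.35 and BIRC5 by 0.32 (2 of 4 lower). FGFBP1 rose by 0.57, MAOB by 0.46 (1 of 3 higher), CCND1 by 0.28 (1 of 2 higher) and CDKN1A by 0.27. KRT4 (0.02), KRT19 (0.12), ALPI (-0.04) and MUC2 (0.13) were not past the threshold, ALPI and MUC2 lying below the median level.

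The 5 genes whose 6 values, set relative to their NC mean, lay closest to those of KLF4 were DDIT4 (root mean square distance 0.05 on the log2 scale), HELZ2 (0.06), ATF3 (0.08), SP100 (0.09) and TNFAIP3 (0.11). DDIT4 read 8.70, 8.63 and 8.76 in CPEB3-labelled arrays and 10.62, 10.61 and 10.67 in NC-labelled arrays. For KLF5 the closest were PIEZO1 and LRP5L (0.02 each) and SEMA4D, OPTN and NAIF1 (0.03 each). With 2 tight groups of arrays, as for KLF4, such a distance mostly ranks genes by the size of their group difference. The NC values of KLF5 were less even (6.88, 7.11 and 7.05). Its 5 closest genes likewise read lowest in NC replicate 1 and highest in NC replicate 2, so they also share that unevenness between arrays.

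Markers of other cell types were set beside these falls, since endothelial cells hold much KLF2 and KLF4; their part in the result was not tested. The counts that follow stand beside 12.5% of all genes lower and 10.9% higher, and the 1 gene called in each of the endothelial, leukocyte and fibroblast lists is near those shares. Of 9 endothelial genes 1 was lower (ESAM, -0.30) and 0 higher, a call lost without CPEB3 replicate 1 or 3 or NC replicate 1 or 2. Their summed linear intensity was 120.4 to 123.1 in CPEB3-labelled arrays and 121.8 to 126.6 in NC-labelled arrays. PECAM1, CDH5 and VWF did not pass, and CDH5 was near the floor (1.54 against 1.42). Leukocyte genes had 1 of 9 higher (ITGAM, whose other probe set was lower) and a sum of 141.9 to 155.2 against 127.4 to 140.6. Fibroblast genes had 1 of 8 higher (DCN, at 1 of its 7 probe sets) with 160.6 to 172.2 against 146.4 to 159.9. COL1A1, the brightest of the fibroblast list, was not past the threshold, with 2 of its 5 probe sets lower. Below the median level lay 5 of 9 endothelial, 6 of 9 leukocyte and 5 of 8 fibroblast genes, and the sums do not count cells. The summed intensity of the 10 KLF genes was 1324 to 1370 against 2863 to 2979. Of the 12 epithelial genes KRT20, a marker of differentiated colonic cells, rose by 0.87 and KRT18 by 0.26, and CLDN4 fell by 0.34.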

How the data were processed

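RNA of 6 SW480 samples, 3 labelled CPEB3 and 3 labelled NC, was read on Affymetrix HG-U133 Plus 2.0 arrays. The deposited values are normalized intensities on a linear scale, from 1.39 to 8436, made by the authors with RMA per the submitters' processing notes. Its version, and how values returned from log2, are not given here. RMA makes the distributions of arrays alike, so a change of total RNA is not seen, and it shrinks differences of dim probe sets. The number of arrays limits the precision, and no detection calls were used.

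Log2 was taken of the intensities. After 62 control probe sets were left out, 54613 were fitted (R 4.3.3, limma 3.58.1; lmFit, then eBayes, with group as the only term, two-sided, Benjamini-Hochberg adjustment, threshold 0.05). The table names 1 gene for 41091 probe sets, several for 1801 and none for 11721. Related lists were read in a second fit of 19775 genes, each at the brightest probe set that names it alone. List members without such a probe set were not analysed here. Groups and replicate numbers came from the titles.

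The 10 genes, the lists and the alternatives were chosen with earlier results of these data known. All 32 member probe sets, CPEB3, up to 4 called genes of each list and the 5 genes nearest KLF4 and KLF5 are named by rule, and other genes named were chosen after their values were seen. Alternatives changed the probe set summary, the dim and cross-matching probe sets, the scaling, the variance model, the replicate block, the threshold and single arrays. Cross-matching here means only a name ending in _s_at or _x_at, and probe matches were not checked. Simulated data for the comparison of 54613 probe sets held 50 changed probe sets of each size. There the fit recovered 0% of 0.25, 52% of 0.5 and 90% of 1 log2 changes, with 3 false calls. The measured arrays had 7891 calls, so the adjusted threshold differed and these rates do not carry over directly. Figures used matplotlib 3.10.9.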

Additional observations from a re-analysis of the deposited data

How the results depend on the processing

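All 8 KLF genes that fell at their brightest probe set kept direction and call under every scaling, variance model, threshold and left-out array tried, and with the mean or the most variable of their probe sets, but not without cross-matching probe sets, where KLF2 lost its call and KLF4 and KLF10 had none. The count of lower member probe sets was 17 as reported, 15 to 17 when single arrays were left out, 16 with spike-in centring, 15 at a threshold of 0.01 and 17 with the replicate block, and 0 were higher in all of these. Leaving out probe sets with names ending in _s_at or _x_at kept 14, of which 8 were lower, and 7 genes, of which 5 were lower. All probe sets of KLF4, KLF9 and KLF10 had such names, although the annotation gives each to its gene alone. With such probe sets left out KLF2 was -0.19. Same-numbered samples deviated together with r of only 0.00647, 0.00121 and 0.0926, and CPEB3 replicate 2 correlated best with NC replicate 1, so the numbers were not taken as pairs. Arrays give no depth, and 8 of the 32 probe sets lay below the median level.

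Signs turned for values that had not passed. With spike-in centring these were KLF3 222913_at (0.0431) and 219657_s_at (0.0289), KLF9 228474_s_at (0.170), 203542_s_at (0.0210) and 230636_s_at (0.139), KLF11 1553137_s_at (0.0913), and KLF13 225390_s_at (0.0687), 219878_s_at (0.124) and 230094_at (0.0814). Without single arrays the ranges were -0.0889 to 0.110 for KLF6 211610_at, -0.0263 to 0.147 for KLF7 238517_at, -0.0400 to 0.0209 for KLF9 228474_s_at, -0.0807 to 0.0330 for KLF9 230636_s_at, -0.139 to 0.000357 for KLF11 1553137_s_at, -0.0654 to 0.196 for KLF13 1564463_at and -0.211 to 0.00846 for KLF13 230094_at. KLF13 was 0.0281 at its most variable probe set and without cross-matching ones. The cause was not tested, beyond the 0.18 that spike-in centring adds.

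List counts moved more. With spike-in centring SP genes had 2 lower and 2 higher, partners 5 and 1, ERK5 inputs 2 and 2, turnover 1 and 2, reported targets 2 and 7, epithelial markers 0 and 6, endothelial 0 and 2, TGF-beta genes 1 lower, leukocyte markers 6 higher and fibroblast markers 4 higher, where all probe sets had 1910 lower and 17876 higher (4294 and 3597 as reported). With the mean of probe sets the other KLF genes had 0 higher, SP genes 2 lower, TGF-beta and turnover genes 1 lower and 0 higher each, and leukocyte and fibroblast markers 0 higher. Without dim probe sets 1 other KLF gene was higher. Without single arrays partners had 5 to 8 lower, TGF-beta genes 0 to 1 higher, endothelial markers 0 to 1 lower and leukocyte markers 1 to 2 higher.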
